A study of Homo sapiens with 4 samples.

Results

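The EGF receptor family and its ligands were read in HepG2 cells, an established line derived from a human liver cancer, over 12 h of treatment with APRIL. The members were 9 genes, chosen by name: the ligands HBEGF, EREG, TGFA, BTC and EGF, the receptors EGFR, ERBB2 and ERBB3, and the receptor inhibitor ERRFI1. They were read by 30 probe sets of the Affymetrix Human Genome U133 Plus 2.0 array, among 19775 genes read by 41091 probe sets that the annotation pairs with 1 symbol. There were 4 arrays of total RNA. One was of untreated cells (0 h), and the others were of cells kept for 2, 6 and 12 h with APRIL at 200 ng/ml. APRIL is a cytokine of the TNF family that is best known for its action on B cells. All cultures, the untreated one included, had been deprived of serum first. The design text gives 24 h of this and the protocols in the labels say overnight. The labels name no other agent and no genetic change. The question posed is which transcripts differ with time under APRIL.

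EGF family ligands are made as membrane proteins and are released by proteases of the cell surface, the ADAM sheddases. A released or neighbouring ligand brings a pair of ERBB receptors together, which activates their kinases and, through RAS, the ERK cascade. ERBB2 binds no known ligand and ERBB3 has little kinase activity of its own, so both work mainly in pairs with another receptor. ERRFI1, also called MIG6, binds the kinase domain of EGFR and inhibits it, and its gene is switched on by EGFR signalling. In liver, EGFR and its ligands take part in regeneration after loss of tissue.

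The deposited log2 values give each probe set relative to its own median over the 4 arrays, so a value of 0 is that probe set's middle level and no expression level is left. For the same reason the label HepG2 could not be checked against levels of hepatocyte genes, and probe sets cannot be ranked by abundance. A gene's ratio is the median over its probe sets of the log2 difference between 2 arrays, and 2-fold is a log2 ratio of 1. Base 2 and the direction (a higher value being more transcript) were assumed, since the sources used here state neither. With 1 array per time there are no replicates and no test, so every difference is between 2 arrays, and time in culture cannot be told apart from treatment. Fewer cells with a transcript and less transcript per cell cannot be told apart either. As a yardstick, the log2 ratios of 2 h over 0 h had a robust SD of 0.16 across genes. Later arrays spread more widely. The plain SD across all genes was 0.185 at 2 h, 0.24 at 6 h and 0.35 at 12 h over 0 h. The yardstick is therefore too narrow for 12 h ratios. Of the 14 read markers of immune cells, fibroblasts and endothelium, none was at or past 2-fold at any time against 0 h, nor was any of 7 hepatocyte genes. For the bacterial spike-in RNAs the 12 h over 0 h median was -0.35 on the log2 scale (18 probe sets, from -0.47 to -0.21), where that of all genes was 0.01. Ratios at 12 h are therefore given relative to the median gene. Set against the added RNAs, each would be higher by about the size of that spike-in median. Values against the added RNAs show only this change of reference. The added RNAs do not measure transcript per cell, so whether it rose in common at 12 h was not tested.

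At 12 h, 1 of the 9 genes, HBEGF, was at or past 2-fold higher than at 0 h, and none was past 2-fold lower. Among all genes 0.946% were past 2-fold higher and 0.986% lower. Against the added RNAs these become 694 genes higher and 76 lower, in place of 187 and 195, and ERRFI1 joins HBEGF past 2-fold. Of the 9 genes 8 lay above 0 (the ninth, ERBB3, joins them against the added RNAs), with a median ratio of 0.22, where 51.7% of all genes lay above 0 with a median of 0.01. At the level of single readings, 4 of the 30 probe sets were past 2-fold higher (2 of HBEGF, 1 of EREG and 1 of EGFR), against 1.56% of all probe sets. The comparisons of 2, 6 and 12 h with 0 h share the untreated array.

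**Figure D1:**
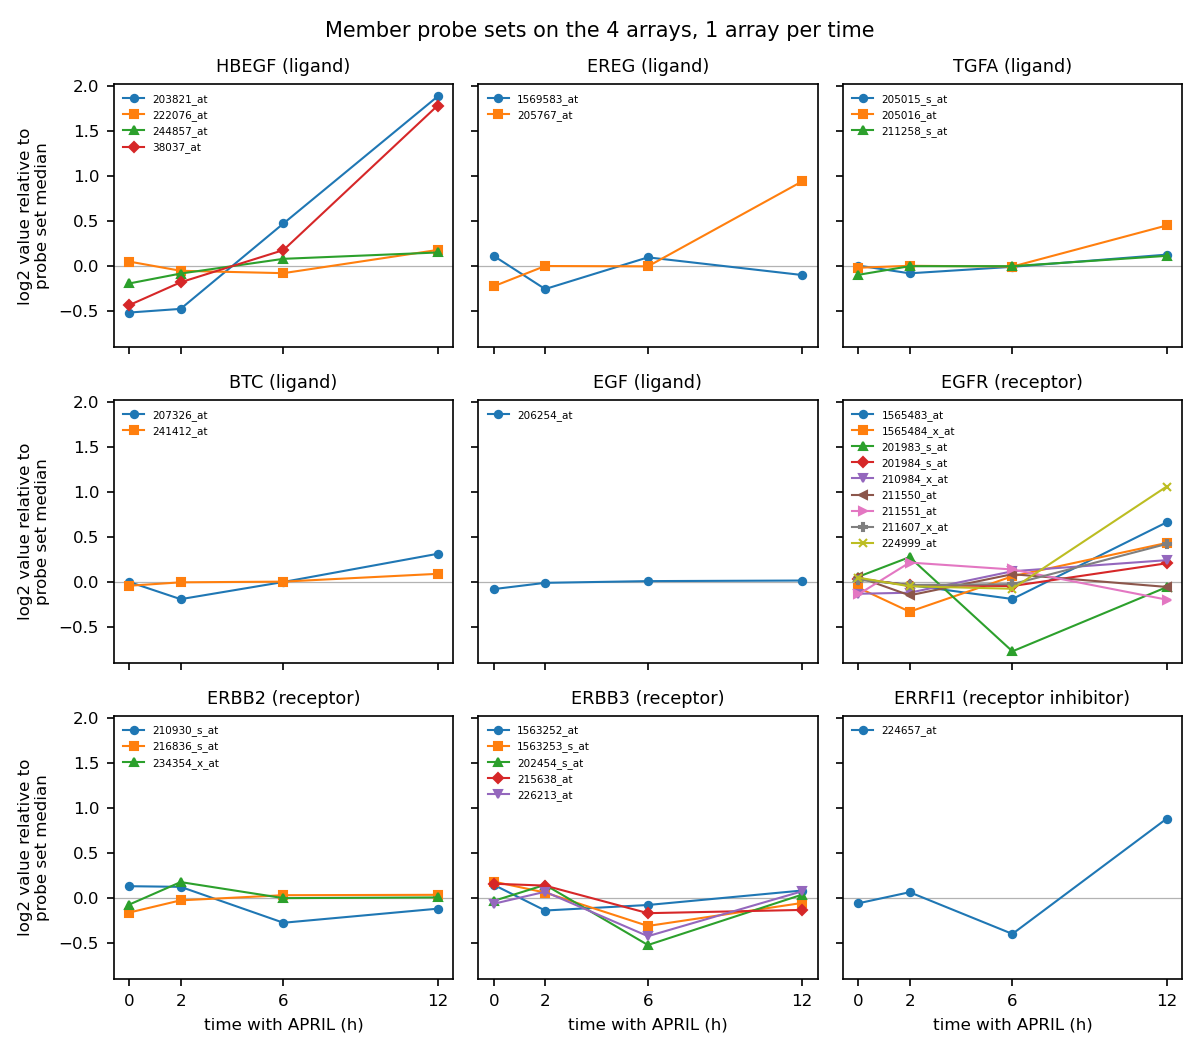
Log2 value of each probe set relative to its own median (vertical axis) on the arrays at 0, 2, 6 and 12 h (horizontal axis), with 1 panel per gene and 1 line per probe set. A pair of HBEGF lines ends at 1.89 and 1.79 at 12 h while the other HBEGF lines stay between -0.19 and 0.18, and the ERRFI1 line dips to -0.40 at 6 h before it ends at 0.88.

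HBEGF encodes heparin-binding EGF-like growth factor, a ligand of EGFR and ERBB4 that also serves as the diphtheria toxin receptor. Its 4 probe sets fell into 2 kinds. In time order, probe set 203821_at had log2 values of -0.52, -0.47, 0.47 and 1.89. Probe set 38037_at had -0.43, -0.18, 0.18 and 1.79. In both, each later array was higher than the one before it, and the 12 h array stood well above the other three. Their ratios at 12 h over 0 h were 2.40 (5.29-fold) and 2.22 (4.65-fold), which placed them 18th and 29th among all 41091 probe sets with 1 symbol. The other readings were nearly flat. Probe set 222076_at ranged from -0.078 to 0.18 and 244857_at from -0.19 to 0.15, and their 12 h ratios were 0.13 and 0.34. In 244857_at, too, each later array was higher than the one before it. The annotation lists a sequence accession for 203821_at and 38037_at and none for the flat ones. A missing entry does not show that a reading is wrong, and which readings are nearer to the transcript was not tested.

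Taken over its 4 probe sets, the HBEGF ratio was 0.076 at 2 h (SD 0.15 over probe sets), 0.44 at 6 h (SD 0.48) and 1.28 at 12 h (2.43-fold, SD 1.20). The 12 h median lies between the flat and the high readings and is the level of neither. With either high probe set left out it was 0.34, below 2-fold, and with either flat one left out it was 2.22. At 6 h the high probe sets were already higher than at 0 h, by 0.99 and 0.61. Between 6 and 12 h they were higher by a further 1.41 and 1.61, so the larger step in both came in the last 6 h.

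EREG encodes epiregulin, a ligand of EGFR and ERBB4. Probe set 205767_at had log2 values of -0.22, 0.0018, -0.0018 and 0.94 in time order. Its 12 h array stood apart from the other three, with a ratio to 0 h of 1.17 (2.24-fold). The second probe set, 1569583_at, had 0.11, -0.25, 0.098 and -0.098, with no array apart, and a 12 h ratio of -0.21. The gene's median at 12 h, 0.48 (SD 0.97 over 2 probe sets), joins readings of opposite sign.

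TGFA, BTC and EGF encode transforming growth factor alpha, betacellulin and EGF itself, which all bind EGFR. Their 12 h ratios were 0.21 (SD 0.18 over 3 probe sets), 0.22 (SD 0.13 over 2) and 0.095 (1 probe set). All 6 of these probe sets were above 0 at 12 h over 0 h, where 51.4% of all probe sets were. Probe set 205016_at of TGFA had the largest 12 h ratio of the 6, 0.47, with -0.017, 0.0043, -0.0043 and 0.45 in time order. Probe set 207326_at of BTC had 0, -0.19, 0 and 0.31. The single EGF probe set had the smallest range of all 30, from -0.079 at 0 h to 0.016 at 12 h. At 2 h and 6 h the medians of these ligands lay between -0.077 and 0.089, within the yardstick, and against the added RNAs those of TGFA and BTC at 6 h turned to -0.067 and -0.057.

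**Figure D2:**
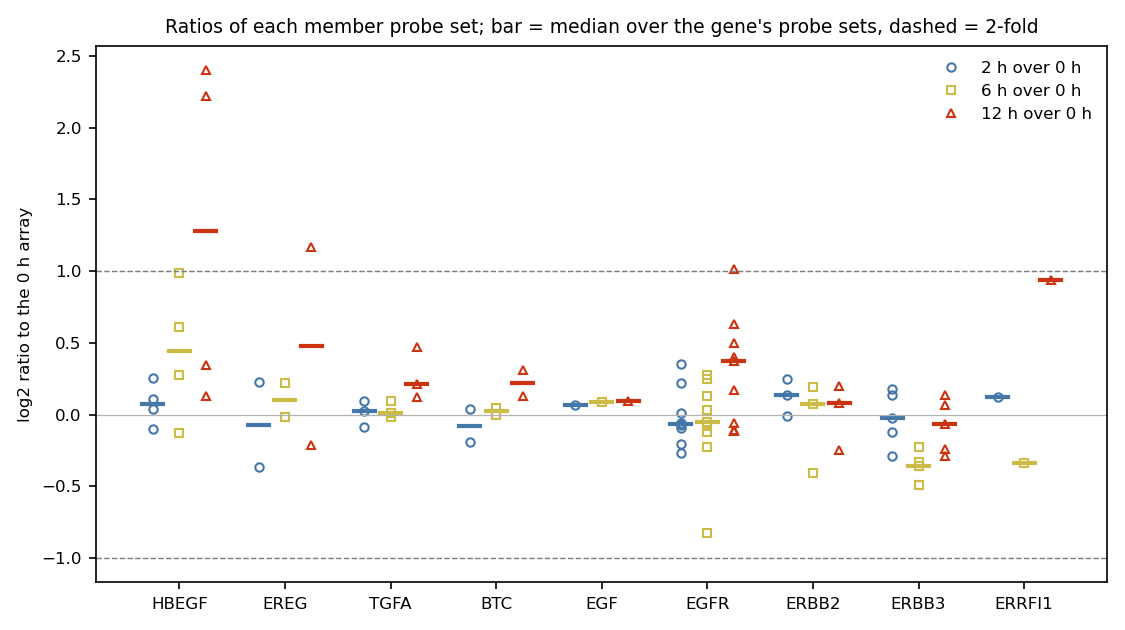
Log2 ratio to the 0 h array (vertical axis) of every probe set of each gene (horizontal axis) at 2 h (circles), 6 h (squares) and 12 h (triangles). Bars mark the median over a gene's probe sets and dashed lines mark 2-fold. Open triangles past the upper line belong to HBEGF (2.40 and 2.22), EREG (1.17) and EGFR (1.01), and all ERBB3 squares lie below 0.

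EGFR encodes the receptor for these ligands and had 9 probe sets, the most of any member. At 12 h over 0 h its median was 0.37 (SD 0.38), with 6 probe sets above 0 and 3 below. Probe set 224999_at had 0.048, -0.048, -0.075 and 1.06 in time order. Its first 3 arrays were close together and its 12 h ratio was 1.01 (2.02-fold), just past 2-fold. Next came 1565483_at at 0.63, 1565484_x_at at 0.50, 211607_x_at at 0.40, 210984_x_at at 0.37 and 201984_s_at at 0.17. Probe sets 211551_at, 211550_at and 201983_s_at were at -0.058, -0.11 and -0.12. The readings of this receptor thus differed in sign as well as in size at 12 h.

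At 6 h EGFR as a whole was at -0.049, with 1 probe set apart from the other eight. Probe set 201983_s_at had 0.058, 0.28, -0.77 and -0.058 in time order. Its 6 h array was the low one, with ratios of -0.83 to 0 h and -1.05 to 2 h, and its 12 h value was back near that at 0 h. The other 8 EGFR probe sets had 6 h ratios from -0.22 to 0.28. The name ending _s_at or _x_at marks probe sets that can match more than 1 transcript, which holds for 5 of the 9.

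ERBB2, the partner receptor without a known ligand, stayed close to 0 h at every time. Its medians were 0.14 at 2 h, 0.072 at 6 h and 0.080 at 12 h, with SDs over 3 probe sets of 0.13, 0.32 and 0.23. Probe set 210930_s_at went the other way from the rest at 6 h, with -0.41 against 0.19 and 0.072. All 3 can match several transcripts, so ERBB2 has no value without such probe sets. Against the added RNAs the gene's 6 h ratio was -0.0084, so it has no settled direction there.

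ERBB3, which binds neuregulins and signals mainly through phosphatidylinositol 3-kinase, had readings of both signs at 2 h and 12 h and of 1 sign at 6 h. At 6 h all 5 of its probe sets were lower than at 0 h, at -0.49, -0.49, -0.36, -0.33 and -0.22 (median -0.36, SD 0.11). Probe set 202454_s_at had -0.035, 0.14, -0.53 and 0.035 in time order, and 226213_at had -0.067, 0.067, -0.43 and 0.072. In these, the 6 h array alone was low. Among the 706 genes with 5 probe sets, 41 (5.81%) had all 5 below 0 at 6 h. With the cut at ERBB3's own highest ratio, 3 did, ERBB3 included. With the cut set in the same way, 261 did at 2 h and 160 at 12 h. Since ERBB3 itself sets the cut, these counts do not measure how unusual its 6 h values are. Both counts at 6 h were chosen after these values were seen. The size was below 2-fold in every probe set. At 12 h the ERBB3 median was -0.064 (SD 0.19), which turned to 0.29 against the added RNAs. Against 6 h all 5 probe sets were higher at 12 h, by 0.036 to 0.56.

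ERRFI1, the inhibitor of EGFR, was read by 1 probe set, with -0.062, 0.062, -0.40 and 0.88 in time order. The 6 h array was the lowest and the 12 h array the highest. Its ratio to 0 h was 0.12 at 2 h, -0.34 at 6 h and 0.94 (1.92-fold) at 12 h, just short of 2-fold. No second reading of it was at hand. From 6 to 12 h it was higher by 1.28 (2.43-fold), which placed it 67th of 19775 genes in that step.

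The steps between successive arrays are described next. From 2 to 6 h no member gene was past 2-fold, where 0.116% of all genes were past it higher and 0.329% lower. EGFR, ERBB2, ERBB3 and ERRFI1 had medians of -0.0084, -0.18, -0.37 and -0.46, all below 0. The EGFR median was near 0, with 4 of its 9 probe sets above 0. Of the 9 genes 4 lay above 0 and 4 below in that step, where 56.7% of all genes lay above 0. The ligands lay at 0.26 for HBEGF, 0.17 for EREG, 0.099 for BTC, 0.019 for EGF and 0 for TGFA. The added RNAs had a median of 0.081 in that step, which is more than the values of EGF and TGFA. Against 0 h, where 0.101% of all genes were past 2-fold higher and 0.283% lower at 6 h, no member passed either. At 2 h against 0 h the 9 medians lay between -0.077 and 0.14, and none was past 2-fold, where 0.0354% of all genes were higher and 0.0101% lower. From 6 to 12 h all 9 medians were above 0, from 0.0064 for EGF to 1.28 for ERRFI1, where 45.1% of all genes were above 0. ERRFI1 alone was past 2-fold in that step, against 0.799% of all genes higher and 0.885% lower. The added RNAs had a median of -0.44 in that step, and set against them HBEGF, at 0.84, would be past 2-fold as well.

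Genes whose ratios lay nearest to those of HBEGF were found by the Euclidean distance over the 3 ratios to 0 h, so likeness rests on 4 arrays. By gene medians the search took only the 13685 other genes whose probe sets all had 1 sign at 12 h over 0 h. The nearest of these were RNF19B (distance 0.095), FCGBP (0.10), LINC00242 (0.12), DDX5 (0.14) and SOX7 (0.14). FCGBP, LINC00242 and DDX5 had 1 probe set each. Since the HBEGF median lies between its readings, single probe sets nearest to 203821_at were also taken, a choice made after seeing the data. These were of PHLDA1 (0.15), FILIP1L (0.26 and 0.31), CREBRF (0.27) and BRWD1 (0.32), whose genes have other probe sets as well. The PHLDA1 reading had ratios of 0.023, 1.14 and 2.38 at 2, 6 and 12 h, while the median over the gene's 6 probe sets was 0.62 at 12 h. PHLDA1 is also in the list of EGF and ERK response genes.

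Other genes of the pathway were described as 5 lists. Of the other ERBB ligands and ERBB4, 5 of 7 genes were read, and none was past 2-fold at any time. The neuregulin NRG3 had 0.60, 0.29 and 0.14 at 2, 6 and 12 h, and ERBB4, the neuregulin receptor, -0.039, 0.20 and 0.084. NRG2 had -0.21, 0.12 and 0.059, and NRG4 had -0.15 at 2 h. The median of this list at 12 h, the receptor ERBB4 included, was 0.059, and that of the 5 member ligands was 0.22. Members and lists were chosen with earlier results of these data known, so the difference is no independent evidence. AREG and EPGN are not analysed here.

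The sheddases and their cofactors had 9 of 9 genes read, none past 2-fold at any time. Their 12 h median was 0.21 with 7 above 0, where 51.7% of all genes were above 0. ADAM17, the main sheddase of HBEGF, EREG and TGFA, was at -0.012, -0.074 and 0.20 at 2, 6 and 12 h. RHBDF2, an inactive rhomboid protein that ADAM17 needs for its maturation, was at -0.46 at 6 h and 0.48 at 12 h (1 probe set), and from 6 to 12 h it was higher by 0.94. The rhomboid protease RHBDL2 was lower in all 3 of its probe sets at 6 h (median -0.69) and at 12 h (median -0.69, from -0.73 to -0.60). RHBDF1 had -0.23 at 2 h and 0.38 at 12 h. The protease inhibitor TIMP3 had 0.16 at 2 h, and the sheddase ADAM15 had 0.14 at 2 h and 0.26 at 6 h.

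Adaptors and the RAS-ERK core had 11 of 16 genes read, none past 2-fold, and a 12 h median of -0.029. MAP2K2 and MAP2K1, the kinases that activate ERK, were the largest at 12 h, at 0.63 (SD 0.33 over 3 probe sets) and 0.48, followed by ARAF at 0.23. The exchange factor SOS1 was at -0.35 at 6 h, with probe sets from -1.08 to 0.076, and MAP2K1 and HRAS were at 0.31 and 0.30. At 2 h HRAS, ARAF and MAP2K2 had 0.26, 0.22 and 0.18.

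Among 17 receptor and ERK attenuators other than ERRFI1, 16 were above 0 at 12 h, where 51.7% of all genes were. Their median was 0.24 and none was past 2-fold. The largest were DUSP5, a phosphatase of ERK, at 0.93, SOCS5, which promotes loss of EGFR, at 0.92 (SD 0.086 over 3 probe sets), and SPRY4, a Sprouty inhibitor of receptor signalling, at 0.80. SOCS5 differed from ERRFI1 in its time course. It was past 2-fold at 6 h, at 1.03 with probe sets from 0.84 to 1.21, and its step from 6 to 12 h was -0.14. DUSP5 followed the later course, at -0.076 at 6 h and 2.00-fold higher at 12 h than at 6 h. LRIG3 had -0.53, RNF41, a ubiquitin ligase of ERBB3, 0.36 and DUSP6 -0.19 at 2 h.

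Genes known to respond to EGF and ERK had 18 of 19 members read, and 8 were past 2-fold higher at 12 h, with none lower. Among all genes 0.946% were past 2-fold higher and 0.986% lower. The list median was 0.66. This list was drawn up with earlier results of these arrays known, so its count is no independent evidence. The 8 were EGR1 at 2.91, CXCL8 at 2.56, CCN1 at 2.00, IER3 at 1.98, EPHA2 at 1.66, JUN at 1.42, JUNB at 1.19 and VEGFA at 1.01. The other 10 ranged from CCND1, cyclin D1, at -0.43 to IER2 at 0.69. No gene of the list was past 2-fold at 2 or 6 h. EPHA2, a receptor kinase, came nearest at 6 h at 0.95, beside IER3 at 0.41 and MYC at -0.37, and at 2 h the largest were FOS at -0.49, IER2 at 0.34 and ETV4 at 0.29.

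**Figure D3:**
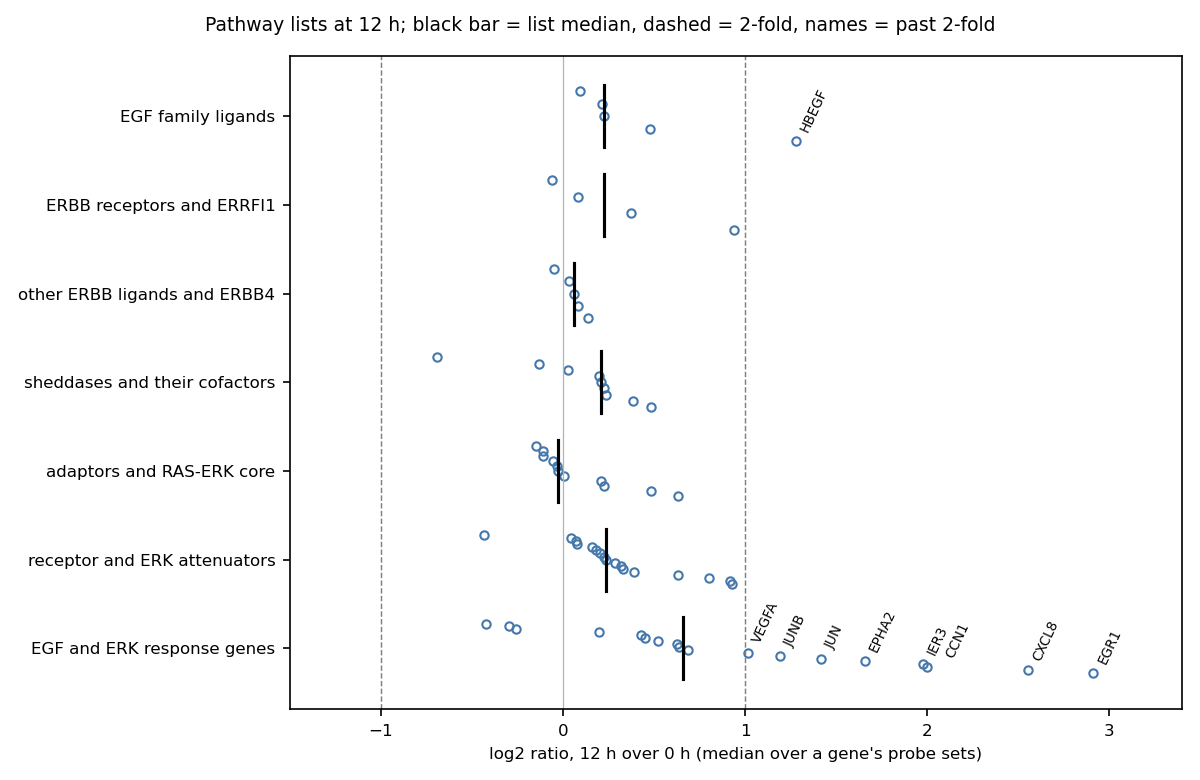
Log2 ratio at 12 h over 0 h (horizontal axis) of every gene of the pathway lists (rows), each point being the median over a gene's probe sets. Black bars mark list medians, which run from -0.029 for adaptors and the RAS-ERK core to 0.66 for EGF and ERK response genes, and names are given for genes past the dashed 2-fold lines.

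Promoter sequence is shown for HBEGF, EREG, EGFR and ERRFI1, the genes whose highest probe set had the largest 12 h ratios of the members (2.40, 1.17, 1.01 and 0.94). Of all 30 member probe sets 22 were higher at 12 h than at 0 h and 8 were lower, where 51.4% of all probe sets were higher. RefSeq starts in GRCh38.p14 were given for 8 of the 9 genes, with 10 windows in all since EGFR and TGFA have a pair each. ERBB3 is the gene without one. In the 250 bases before each start, both strands were searched for the AP-1 site TGANTCA, the cAMP response element TGACGTCA, the EGR site GCGNGGGCG, the CArG box and the kappaB site, and no match overlapped one of another motif in the members' windows. Of all 35116 windows 6.57% held the AP-1 letters, 1.65% the cAMP element, 8.41% the EGR site, 1.16% the CArG box and 5.21% the kappaB site. The windows of HBEGF, EREG, ERRFI1 and BTC, the upstream window of EGFR and one of the TGFA windows held none of the 5. The downstream start of EGFR held AP-1 letters at 232 and 136 bases before the start, and the windows of EGF and ERBB2 held 1 match to TGANTCA each. The EGF match read TGAGTCA and the ERBB2 match TGATTCA. The other TGFA window held 1 kappaB match. A match is a description of letters, not a bound site, and no match says only that these letters are not in the window. The windows of these 4 genes are given 5′ to 3′ on the gene's strand, with the motif letters in capitals where there are any. They lie at chr5:140346604-140346853 (minus strand) for HBEGF, chr4:74364895-74365144 (plus) for EREG, chr1:8026310-8026559 (minus) for ERRFI1, chr7:55018767-55019016 (plus) for the upstream EGFR start, and chr7:55109589-55109838 (plus) for the downstream one, where the capitals are AP-1 letters.
HBEGF: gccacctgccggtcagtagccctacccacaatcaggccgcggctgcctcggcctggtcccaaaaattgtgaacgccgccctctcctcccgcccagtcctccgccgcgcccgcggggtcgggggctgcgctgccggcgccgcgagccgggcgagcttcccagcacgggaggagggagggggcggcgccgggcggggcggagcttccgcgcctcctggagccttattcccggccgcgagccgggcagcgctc
EREG: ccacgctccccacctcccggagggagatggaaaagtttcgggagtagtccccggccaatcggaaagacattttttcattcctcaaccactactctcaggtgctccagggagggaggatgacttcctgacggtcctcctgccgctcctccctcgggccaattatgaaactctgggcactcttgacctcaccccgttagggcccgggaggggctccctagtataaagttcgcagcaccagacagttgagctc
ERRFI1: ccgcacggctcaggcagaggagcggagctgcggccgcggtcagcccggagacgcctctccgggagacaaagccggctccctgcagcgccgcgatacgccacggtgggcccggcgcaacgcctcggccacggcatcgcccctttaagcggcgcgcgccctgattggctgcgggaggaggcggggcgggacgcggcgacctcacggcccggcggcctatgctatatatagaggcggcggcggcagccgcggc
EGFR upstream start: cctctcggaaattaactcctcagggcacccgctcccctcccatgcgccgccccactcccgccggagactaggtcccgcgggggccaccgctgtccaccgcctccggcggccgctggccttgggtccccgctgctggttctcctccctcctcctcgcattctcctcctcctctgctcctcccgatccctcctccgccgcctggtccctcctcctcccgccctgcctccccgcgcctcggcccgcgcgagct
EGFR downstream start: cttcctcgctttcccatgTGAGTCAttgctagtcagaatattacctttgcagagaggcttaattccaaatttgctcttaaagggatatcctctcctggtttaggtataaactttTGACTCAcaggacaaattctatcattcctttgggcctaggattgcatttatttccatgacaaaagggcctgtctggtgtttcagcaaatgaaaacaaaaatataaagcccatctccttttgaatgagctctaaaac

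The HBEGF and ERRFI1 windows were rich in G and C, at 76.4% and 75.2%, while the EREG window was at 58.0% and that of the downstream EGFR start at 38.8%. The window of the upstream EGFR start was at 73.6%. The array data do not say from which start the EGFR transcripts came.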

How the data were processed

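Total RNA of 4 HepG2 samples, 1 per time, was hybridized to U133 Plus 2.0 arrays. The submitters' processing notes name RMA, with no version, as the method behind the deposited log2 values. The sources used here do not name the software that centred them. RMA corrects background, equalises the arrays and summarises the probes of a set, so a shift common to all genes is removed. In the deposited table every probe set has a median over its 4 values within 1e-06 of 0, so levels, floors on dim probe sets and a choice of the brightest probe set could not be used. Symbols came from the platform annotation and matched RefSeq of GRCh38.p14 for the 41037 of 41091 probe sets whose gene identifier it holds.

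Differences of log2 values were taken within each probe set and summarised by gene as the median. Genes at or past 2-fold were counted. Nothing was tested, since no time has a replicate, and the labels do not say whether cultures were separate. The number of arrays limits the precision. Members and lists were chosen with earlier results of these data known. All members were named, and of each pathway list the genes past 2-fold or else the 3 largest. Alternatives were the mean over probe sets, the widest probe set, no _x_at or _s_at probe sets, centring on array medians or on the spike-in RNAs, another reference, thresholds of 1.5-fold and 3-fold, and each probe set left out. The computation was tested on simulated data. Python 3.11.15, numpy 2.4.6 and pandas 2.3.3 were used.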

Additional observations from a re-analysis of the deposited data

How the results depend on the processing

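The count of 1 member past 2-fold higher at 12 h was the same with the mean over probe sets, without probe sets ending in _x_at or _s_at, and with arrays centred on their medians. It was 3 with the probe set of widest range (HBEGF, EREG and EGFR), 2 with spike-in centring, with a reference made of the other 3 arrays' mean and at 1.5-fold (HBEGF and ERRFI1 each time), and 0 at 3-fold. The share of all genes past the threshold was 2.59%, 3.51%, 0.668%, 4.46% and 0.167% in these settings. At 2 h and 6 h the counts stayed at 0 in both directions under every alternative, as did the count of members lower at 12 h. HBEGF, the only member past 2-fold at 12 h, had a positive ratio in every alternative, from 0.34 with a high probe set left out to 2.40. EREG at 12 h was -0.21 without probe set 205767_at and 1.17 without the other. The HBEGF ratio against the mean of the other 3 arrays was -0.40 at 2 h and -0.0077 at 6 h, since that mean holds the 12 h array. EREG, TGFA and BTC changed sign at 2 and 6 h under some alternatives, and ERRFI1 at 2 h. ERBB2 changed sign under some alternatives at every time, and ERBB3 at 2 and 12 h. No paired analysis was possible because the result comes from no test and each time has 1 array.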
